A study of Taeniopygia guttata with 23 samples.

Results

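RNA polymerase II (Pol II) was compared between Isolate and Tutored male zebra finches (Taeniopygia guttata) in the auditory forebrain, the part of the songbird brain that processes heard song. The comparison rests on the 4 Pol II libraries labelled Isolate or Tutored, of 20 libraries with a list of enriched intervals in a series of 23 samples. Isolate males were housed with 2 adult females, and Tutored males with 1 adult male and 1 adult female. Both kinds of housing began on day 21 after hatching, and the labels put the collection of tissue on day 67, while the design text of the series says 65. Each group had a replicate 1 and a replicate 2 library, so that within a replicate number there was 1 library per group and no replicate of its own. Whether a library came from 1 bird or several is not stated, and the tissue holds all its cell types mixed together. The labels name a commercial antibody for the replicate 1 libraries and leave that of replicate 2 unnamed. A Pol II library of day 32, from younger males that had stayed in the home aviary, served only to ask whether regions had an island there.

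Pol II is the enzyme that transcribes protein-coding genes. It gathers at promoters, where transcription starts and where nucleosomes carry the histone mark H3K4me3, and it is also found along the bodies of genes that are being transcribed. H3K27me3 is the mark of Polycomb repression, and promoters that carry it together with H3K4me3 are often called bivalent. A young male zebra finch copies the song of an adult male tutor, and rearing without a tutor is known to prolong the time in which it can learn. The question of the comparison was whether the absence of an adult male goes with another distribution of Pol II.

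Each library was deposited as a list of enriched intervals, called islands, with the number of ChIP reads in each. Isolate replicates 1 and 2 held 19656 and 15198 islands, against 18311 and 8589 in Tutored replicates 1 and 2. The islands covered 92.8 and 60.7 Mb in Isolate, against 91.9 and 40.4 Mb in Tutored. They held 3780427 and 3264120 reads in Isolate, against 3551511 and 1991518 in Tutored. Tutored replicate 2 thus stood apart with the shortest list, and results that rest on it are given beside those of replicate 1, whose ratios do not use its reads. Only islands are listed, so a region with no island has an unknown number of reads, not 0. The lists name positions and no genes, and no annotation of their genome build was used, so regions are given by position and the tissue could not be checked against marker genes. All 4 lists were joined where islands overlapped or touched, which gave 23609 merged Pol II regions. The bounds and lengths of these regions, and any set called in all 4 libraries, thus depend on Tutored replicate 2 in replicate 1 comparisons too. A region was at H3K4me3 where it overlapped 1 of the 14349 H3K4me3 regions found in all 4 day 67 libraries of that mark, and away from it otherwise, with 9634 regions at H3K4me3 and 13975 away.

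At H3K4me3, regions with Pol II in 1 group alone were mostly Isolate regions, in both replicates. In replicate 1, 1539 regions at H3K4me3 were called in Isolate alone and 352 in Tutored alone, so 81.4% of those that differed were on the Isolate side. In replicate 2 the counts were 3487 in Isolate alone and 152 in Tutored alone, or 95.8%. Away from H3K4me3 the replicates did not go together. Replicate 1 was even there, with 2570 regions in Isolate alone and 2558 in Tutored alone, whereas replicate 2 had 3692 in Isolate alone and 1130 in Tutored alone. Reads outside islands are unknown, so a region with no island need not hold less Pol II. Library depth or enrichment, fewer cells with Pol II at a region and less Pol II per cell cannot be told apart here.

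**Figure D1:**
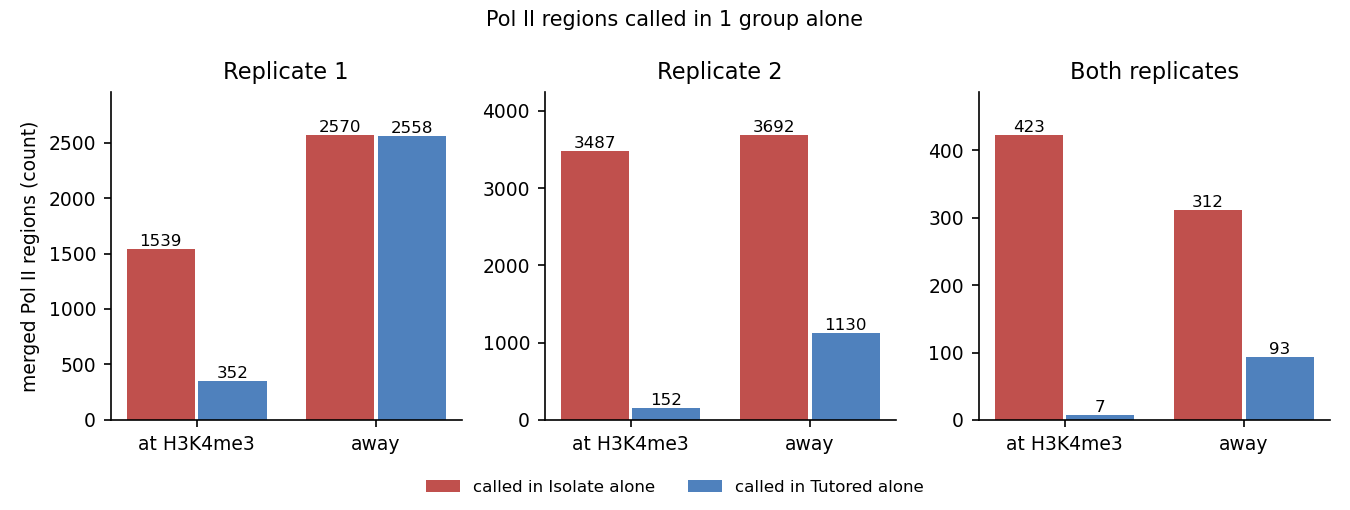
Number of merged Pol II regions called in Isolate alone (red) and in Tutored alone (blue), at H3K4me3 regions and away from them, for replicate 1, replicate 2 and for regions that went the same way in both. The vertical scales differ between panels. At H3K4me3 the Isolate bar is the taller one in each panel (1539 against 352, 3487 against 152 and 423 against 7), while away from it replicate 1 is even (2570 against 2558).

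Over both replicates, 735 regions (3.11% of all merged regions) had an island in each Isolate library and in no Tutored library, here called Isolate-only. The reverse, Tutored-only, held for 100 regions (0.424%). At H3K4me3 these counts were 423 (4.39% of regions there) and 7 (0.0727%), and away from it 312 (2.23%) and 93 (0.665%). Both replicate 1 libraries alone called 3905 regions and both replicate 2 libraries alone 254, or 1705 and 36 at H3K4me3. Tutored replicate 1 with Isolate replicate 2 alone called 317, and Isolate replicate 1 with Tutored replicate 2 alone called 87. Counts of this kind were thus lopsided for each pairing of these unequal lists. The Isolate-only regions were short, with a median of 2.6 kb, and 604 of the 735 were under 5 kb. The Tutored-only regions had a median of 3.6 kb, and regions called in all 4 libraries one of 8.4 kb. Without Tutored replicate 2, the regions in both Isolate libraries and not in Tutored replicate 1 numbered 933. Those in Tutored replicate 1 and no Isolate library numbered 2491, and at H3K4me3 alone these counts were 481 and 263. The total thus turned round, but this rule asks 2 calls of an Isolate-only region and 1 of a Tutored-only region. Without Isolate replicate 2, where the rule is uneven the other way, the totals were 3824 Isolate-only and 202 Tutored-only. Such counts therefore do not settle the direction of the total. When both libraries of a replicate number were given equal numbers of islands, ranked by reads per kb, 321 regions were Isolate-only and 221 Tutored-only. At H3K4me3 there were then 210 Isolate-only and 16 Tutored-only regions. Ranked by reads instead, they were 241 and 206 in all, and 99 and 27 at H3K4me3. Either step cut Isolate islands only, since Tutored had the shorter list in both replicates. Ranking by reads per kb also tends to keep islands at H3K4me3. In Isolate replicates 1 and 2 these held 48.5 and 58.5 reads per kb, against 33.8 and 48.4 away from H3K4me3. A count over 2 against 2 libraries allows no exact two-sided p below 0.333, and no such test was run on these counts.

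The strongest Isolate-only region at H3K4me3, ranked by the smaller of its read counts, lay on chromosome 22 at 3090601 to 3123400 (32.8 kb). It held 813 reads over 25.2 kb in Isolate replicate 1 and 1019 reads over 25.6 kb in Isolate replicate 2, and had no island in either Tutored library. It carried H3K27me3 in all 4 day 67 libraries of that mark and had a Pol II island at day 32. A region on Z at 50358401 to 50366200, also with H3K27me3, held 212 reads in Isolate replicate 1 and 271 in replicate 2, and was not called in Tutored or at day 32. The next were chromosome 4A at 11803201 to 11814400, with 196 and 258 reads in Isolate replicates 1 and 2, and chromosome 10 at 18015601 to 18024200, with 238 and 192 reads. Chromosome 5 at 6645601 to 6653600 followed with 174 and 284 reads, and chromosome 13 at 14643801 to 14650600 with 241 and 166. The lowest counts of any island in Isolate replicates 1 and 2 were 19 and 22 reads. Each of these 6 regions held more, but counts rise with length. Per covered kb all 6 lay below the median island of Isolate replicate 1, which held 36.0 reads per kb. In Isolate replicate 2 all but the one on Z lay below the median island, at 49.6 reads per kb. Isolate-only regions at H3K4me3 had a median of 65.0 reads in replicate 1 and 66.0 in replicate 2. Their islands were also shorter, with a median cover of 1.6 and 1.4 kb.

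Isolate-only regions away from H3K4me3 included chromosome 17 at 1869401 to 1882000, with 336 and 379 reads in Isolate replicates 1 and 2, and chromosome 3 at 44539001 to 44554800, with 265 and 577. A short one on chromosome 1A at 7644401 to 7647800 lay in H3K9me3, a mark of heterochromatin, and held 234 and 847 reads over 2.6 and 3.4 kb. The fourth was chromosome 4A at 17708801 to 17717000, with 204 and 246 reads. Each lacked an island in both Tutored libraries, and the one on chromosome 3 alone had an island at day 32.

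The strongest of the 7 Tutored-only regions at H3K4me3 lay on chromosome 4 at 35308201 to 35320600. It held 381 reads over 12.4 kb in Tutored replicate 1 but 82 reads over 2.8 kb in Tutored replicate 2. Chromosome 1 at 50654001 to 50658800 followed with 136 and 82 reads in Tutored replicates 1 and 2. Chromosome 19 at 841401 to 844600 held 73 and 53, and chromosome 1A at 35102201 to 35104000 held 66 and 49. Away from H3K4me3 the strongest Tutored-only regions were chromosome 8 at 8572001 to 8586000, with 333 and 130 reads, and chromosome 1A at 41480801 to 41487600, with 184 and 121. They were followed by Z at 23963801 to 23970000, with 123 and 111 reads, and chromosome 2 at 132308401 to 132321400, with 381 and 109. All 4 of these regions away from H3K4me3 had a Pol II island at day 32, and none carried H3K27me3 or H3K9me3.

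Seen from the H3K4me3 regions, Pol II reached more of them in Isolate in both replicates, and the gap was there at most lengths. Of the 14349 regions, 65.6% had a Pol II island in Isolate replicate 1 and 56.9% in Tutored replicate 1. In replicate 2 the shares were 49.1% in Isolate and 23.4% in Tutored. The Isolate replicate 2 share lay below the Tutored replicate 1 share, so the groups overlapped when replicate numbers were ignored. Both libraries of the Isolate group alone marked 475 H3K4me3 regions, both of the Tutored group alone 10, and all 4 libraries 3054. These shares depend on the length of the lists. With equal numbers of islands ranked by reads per kb, the Isolate shares were 64.7% and 33.4% in replicates 1 and 2. Ranked by reads they were 60.8% and 32.1%, with the Tutored shares unchanged.

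Longer H3K4me3 regions carried Pol II more often in each library. Among H3K4me3 regions under 2 kb, Pol II was found on 38.3% and 25.5% in Isolate replicates 1 and 2, against 28.3% and 8.56% in Tutored. For regions of 2 to 4 kb the shares were 64.6% and 45.6% in Isolate, against 54.4% and 18.7% in Tutored. For regions of 4 to 8 kb they were 84.8% and 66.8% in Isolate, against 77.9% and 33.98% in Tutored. At 8 kb or more, Isolate had 96.6% and 86.2%, against 94.9% and 63.7% in Tutored. As a ratio the gap was smaller in longer regions, with an Isolate share 1.35 times the Tutored share in replicate 1 and 2.98 times in replicate 2 for the shortest class, and 1.02 and 1.35 times for the longest. In percentage points the longest class had a smaller gap than the shortest in replicate 1 alone, where it was 10.03 in the shortest class and 1.66 in the longest, with 95% exact binomial intervals that overlap in the longest class. In replicate 2 it was 16.9 in the shortest class, 32.8 at 4 to 8 kb and 22.5 in the longest.

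**Figure D2:**
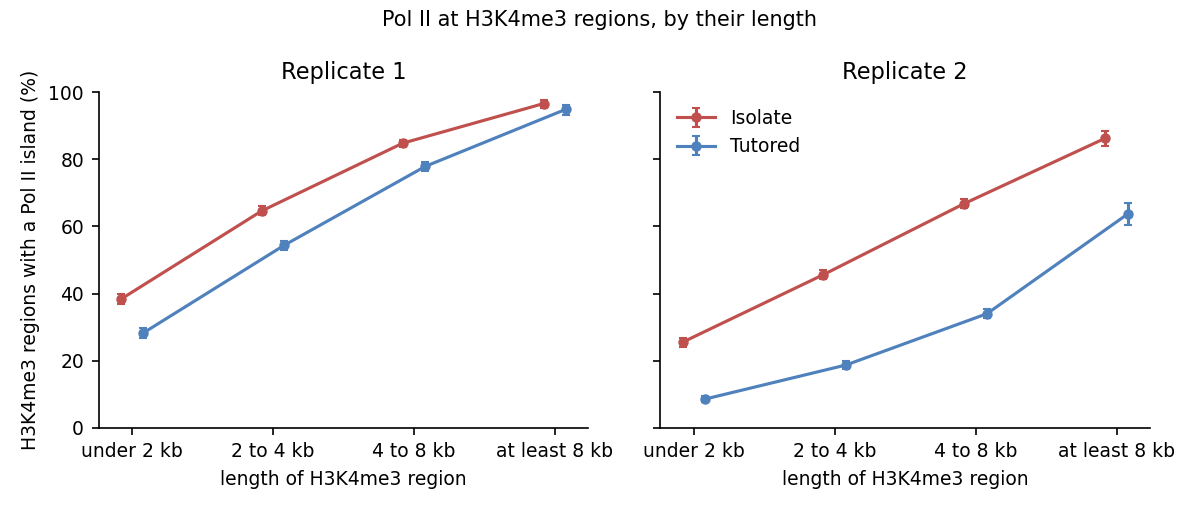
Share of H3K4me3 regions that carry a Pol II island, in percent, by the length of the H3K4me3 region, in Isolate (red) and Tutored (blue), for each replicate. Bars are exact binomial 95% intervals, which cover counting error only. The Isolate points lie above the Tutored points in each class, by 1.66 points for the longest class in replicate 1 and by 32.8 points at 4 to 8 kb in replicate 2.

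The gap stood at the H3K4me3 regions themselves and was smaller beside them. At the centres of H3K4me3 regions, 55.1% of positions lay inside a Pol II island in Isolate replicate 1 and 47.3% in Tutored replicate 1. At 4 kb to either side the shares were 21.6% in Isolate and 20.1% in Tutored, and at 10 kb 18.8% in Isolate and 18.2% in Tutored. In replicate 2 the centre stood at 37.7% in Isolate and 17.7% in Tutored, a ratio of 2.13. At 10 kb it was 14.2% in Isolate and 10.1% in Tutored, a ratio of 1.41, near the 1.503-fold larger cover of the whole Isolate replicate 2 list.

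**Figure D3:**
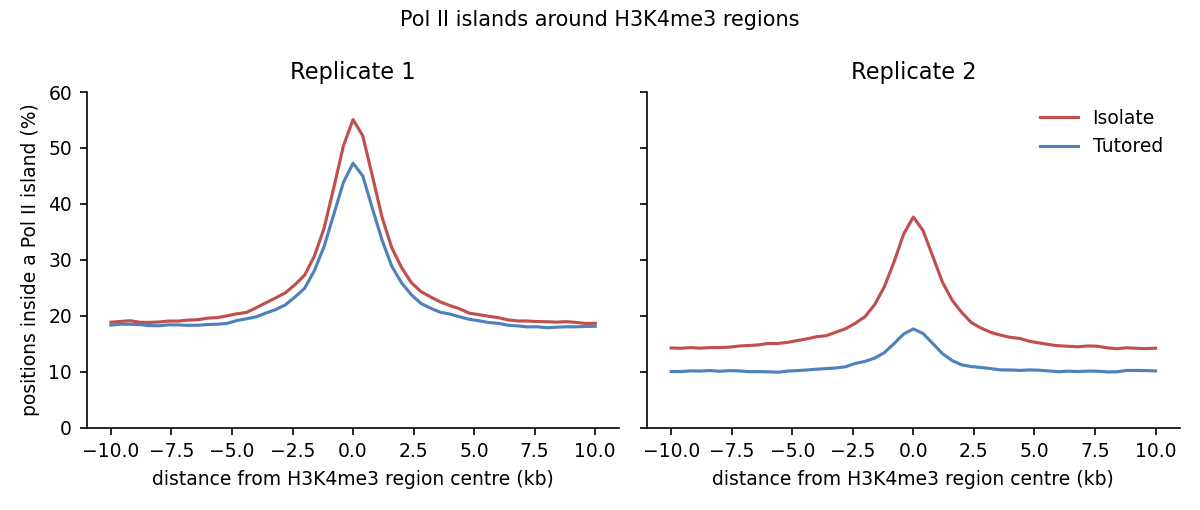
Share of positions inside a Pol II island, in percent, by distance in kb from the centre of 14349 H3K4me3 regions, in Isolate (red) and Tutored (blue), for each replicate. The curves of replicate 1 differ by 7.79 points at the centre and by 0.527 at 10 kb, and those of replicate 2 by 19.99 and 4.13.

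Counted in base pairs, islands covered 28.7 and 20.2 Mb inside H3K4me3 regions in Isolate replicates 1 and 2, against 25.7 and 11.1 Mb in Tutored. Outside H3K4me3 regions they covered 64.1 and 40.5 Mb in Isolate, against 66.2 and 29.2 Mb in Tutored. In replicate 1, Isolate therefore had more Pol II cover inside H3K4me3 and less outside it, with a total cover that was 1.01 times that of Tutored.

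H3K4me3 itself was compared at the same places, all of which had been called in the 4 H3K4me3 libraries. At the 475 H3K4me3 regions with Pol II in both Isolate libraries alone, the median log2 ratio of scaled H3K4me3 reads, Isolate over Tutored, was 0.03 in replicate 1 and -0.01 in replicate 2. At the 10 regions with Pol II in both Tutored libraries alone it was -0.30 and -0.15. Over all 14349 H3K4me3 regions it was 0.00 in both. The replicate 1 lists of H3K4me3 carry the letter of the other group in their deposited names, and the labels were followed. If those names were right, the replicate 1 values would change sign but keep their size.

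H3K27me3 overlapped a larger share of the regions called in both Isolate libraries alone than of those called in both Tutored libraries alone. Of the 735 Isolate-only regions, 24.5% overlapped an H3K27me3 region found in all 4 day 67 libraries of that mark (exact binomial 95% interval 21.4 to 27.8). Of the 100 Tutored-only regions 1 did (1.00%, interval 0.0253 to 5.45). Over all merged Pol II regions the share was 14.5%, and over those called in all 4 libraries 12.6%. The order was the same under 5 kb, with H3K27me3 at 133 of 604 Isolate-only and 1 of 72 Tutored-only regions. H3K9me3 overlapped 9.52% of Isolate-only regions and 0 of the 100 Tutored-only regions, where the exact interval reaches 3.62%, against 5.31% of all merged regions. These overlaps are descriptions, and no test was run on them.

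Each replicate alone had the same order, with values closer together and the replicate 1 Isolate share near that of all regions. In replicate 1, 15.9% of the 4109 regions called in Isolate alone and 6.32% of the 2910 called in Tutored alone overlapped H3K27me3. In replicate 2 it was 22.1% of 7179 in Isolate alone and 10.3% of 1282 in Tutored alone. At H3K4me3 alone the values were 18.7% in Isolate alone and 13.9% in Tutored alone for replicate 1, with overlapping intervals, and 19.3% and 9.21% for replicate 2. Away from it they were 14.2% in Isolate alone and 5.28% in Tutored alone for replicate 1, and 24.7% and 10.4% for replicate 2. H3K9me3 overlapped 5.16% of regions in Isolate alone and 2.75% in Tutored alone in replicate 1, and 9.11% and 5.38% in replicate 2. Whole lists had the same order, with 11.9% and 16.1% of islands in Isolate replicates 1 and 2 at H3K27me3, against 9.72% and 10.3% in Tutored. Isolate replicate 2 had the highest share, and the 2590 regions called in it and no other library overlapped H3K27me3 in 35.5% of cases. The 648 regions called in Tutored replicate 2 and no other library did so in 15.6% of cases. Regions called in both replicate 2 libraries alone stood at 31.1% (n = 254), and those called in all but Tutored replicate 1 at 31.3% (n = 198), both above the Isolate-only share. H3K9me3 overlapped 23.2% and 25.8% of these same sets, in that order. It overlapped 17.7% of regions called in Isolate replicate 2 and no other library, and 9.41% of those in Tutored replicate 2 and no other. For Isolate replicate 1 and no other library it was 2.95%, and for Tutored replicate 1 and no other 2.51%. Both marks thus went with replicate 2 as well as with Isolate, and the part of the replicate 2 libraries in the result was not tested.

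Among H3K4me3 regions, those that also carried H3K27me3 had a Pol II island less often in each library and the larger ratio between the groups. In base pairs this order did not hold for Isolate replicate 2, where islands covered 40.4% of the length of H3K4me3 regions with H3K27me3 and 38.2% of those without. Of the 2523 with H3K27me3, 50.9% and 45.4% had Pol II in Isolate replicates 1 and 2, against 39.6% and 16.2% in Tutored, which makes ratios of 1.29 and 2.80. Of the 11826 without it, 68.7% and 49.9% had Pol II in Isolate, against 60.6% and 24.9% in Tutored, with ratios of 1.13 and 2.00. Among those under 4 kb the ratios were 1.48 and 4.23 with H3K27me3 and 1.21 and 2.39 without, and at 4 kb or more 1.17 and 2.10 with and 1.06 and 1.75 without. With equal numbers of islands ranked by reads per kb, the ratios were 1.23 and 1.69 with H3K27me3 and 1.12 and 1.39 without. Ranked by reads they were 1.21 and 2.02 with it and 1.05 and 1.28 without, and Isolate replicate 2 then had Pol II on 32.8% of those with H3K27me3 and 31.9% of those without. The order of the ratios, with H3K27me3 above without, thus held in both replicates under each of the 3 choices of islands, the last 2 of which were added after seeing the data.

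**Figure D4:**
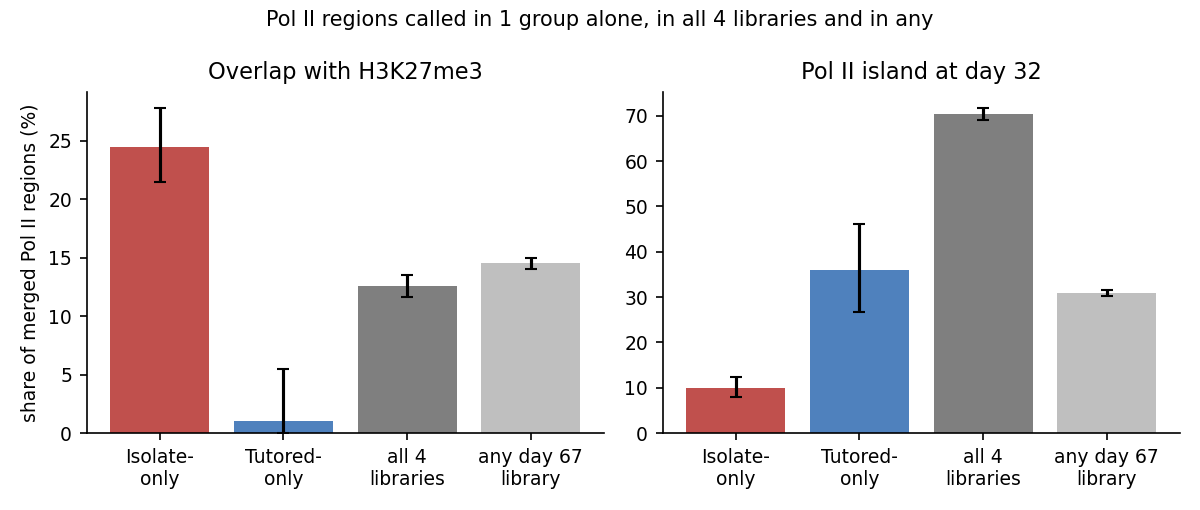
Share of merged Pol II regions, in percent, that overlap H3K27me3 regions of all 4 day 67 libraries (left) and that have a Pol II island in the day 32 library (right). Bars are regions called in both Isolate libraries alone, in both Tutored libraries alone, in all 4 libraries and in any of the 4, with exact binomial 95% intervals that cover counting error only. Isolate-only regions stand at 24.5% and 9.93%, and Tutored-only regions at 1.00% and 36.0%.

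The day 32 library, made from younger males that had stayed in the home aviary, was not used to choose any region and had islands more often where Tutored was called alone. Of the Isolate-only regions, 9.93% had a Pol II island at day 32 (interval 7.87 to 12.3), and of the Tutored-only regions 36.0% did (26.6 to 46.2). All merged regions stood at 30.9% and those of all 4 libraries at 70.4%. Under 5 kb the shares were 7.95% for Isolate-only and 29.2% for Tutored-only regions. Each replicate had this order too. Regions called in Isolate alone had an island at day 32 in 10.4% of cases in replicate 1 and 19.6% in replicate 2, and those called in Tutored alone in 21.3% and 25.7%. At H3K4me3 the values of replicate 1 were 7.47% for Isolate alone and 17.3% for Tutored alone, and those of replicate 2 were 25.6% and 36.2%. There was 1 library at day 32, with 10996 islands, of which 4.43% lay at H3K27me3, fewer than in any day 67 library.

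Regions that differed in one replicate were followed into the other. Of the 1539 regions at H3K4me3 that were called in Isolate alone in replicate 1, 31.3% were called in Isolate replicate 2 and 4.81% in Tutored replicate 2. Of the 352 called in Tutored alone in replicate 1, 25.3% were called in Isolate replicate 2 and 5.68% in Tutored replicate 2. Over all 9634 regions at H3K4me3, 67.3% were called in Isolate replicate 2 and 32.6% in Tutored replicate 2, so regions of either kind lay far below the general rate. Of the 1539, 423 were again in Isolate alone in replicate 2, against 3487 of all 9634, so this overlap too was below the general rate. Regions of either kind were also found more often in Isolate than in Tutored in replicate 2, where the Isolate list is the longer one. In the other direction, the 152 regions at H3K4me3 of Tutored alone in replicate 2 were called in 74.3% of cases in Isolate replicate 1 and 68.4% in Tutored replicate 1, against 83.8% and 73.9% for the 3487 regions of Isolate alone and 90.6% and 78.3% for all regions at H3K4me3. Away from H3K4me3, the 1130 regions of Tutored alone in replicate 2 were called in 37.3% of cases in Isolate replicate 1 and 39.2% in Tutored replicate 1.

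By chromosome, the share of H3K4me3 regions with Pol II was higher in Isolate on all 32 chromosomes with at least 20 merged Pol II regions, in replicate 1 and in replicate 2. Cover by Pol II islands was not so uniform. In replicate 1, islands covered 21.4% of the small chromosomes (under 20 Mb) in Isolate and 19.3% in Tutored, a ratio of 1.11, and the ratio was above 1 on each of 17 small chromosomes. On the large autosomes (at least 50 Mb) they covered 6.11% in Isolate and 6.54% in Tutored, a ratio of 0.935, with Tutored higher on all 6. Z stood at 6.48% in Isolate and 7.18% in Tutored, a ratio of 0.902. In replicate 2 Isolate was higher on all 32 chromosomes, by 1.63 times on the small ones, 1.40 times on the large autosomes and 1.36 times on Z. Small chromosomes thus had the highest ratio and Z the lowest in both replicates, while the level differed. With equal numbers of islands ranked by reads per kb, the replicate 2 ratio was 1.03 on small chromosomes, but 0.674 on large autosomes and 0.699 on Z, so there the direction turned. Ranked by reads, it was 1.502 on small chromosomes, 1.10045 on large autosomes and 1.0996 on Z, and the direction did not turn. Either step cut Isolate islands only and so could only lower the ratio of cover.

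The span of single chromosomes was 0.902 (Z) to 1.21 (chromosome 23) in replicate 1 and 1.28 (chromosome 1A) to 1.87 (chromosome 21) in replicate 2. As a part of the whole list, small chromosomes held 32.1% and 39.0% of Pol II cover in Isolate replicates 1 and 2, against 29.2% and 36.0% in Tutored. With equal numbers of islands ranked by reads per kb they held 32.2% and 43.3% in Isolate, against 29.2% and 36.0% in Tutored. Small chromosomes of birds are dense in genes, and of the merged Pol II regions on them 2551 of 5919 were at H3K4me3, against 4371 of 10837 on the large autosomes.

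In regions away from H3K4me3 the chromosome classes went apart in replicate 1. Of regions called in 1 group alone, those of Isolate made up 63.8% on small chromosomes, 57.0% on middle ones (20 to 50 Mb), 42.3% on large autosomes and 38.4% on Z. At H3K4me3 the same share was 81.9% on small chromosomes, 81.5% on middle ones, 80.6% on large autosomes and 86.4% on Z, so there it hardly depended on the class. In replicate 2 the shares away from H3K4me3 were 86.2%, 77.6%, 71.1% and 71.3%, and at H3K4me3 96.9%, 95.8%, 95.3% and 96.2%, in the same order of classes.

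By length of the merged region, 604 of 15707 regions under 5 kb were Isolate-only (3.85%) and 72 Tutored-only. At 5 to 10 kb the counts were 114 (2.37%) and 24 of 4808, at 10 to 20 kb 15 (0.674%) and 4 of 2225, and at 20 kb or more 2 and 0 of 869. The length is that of the 4 lists joined, so regions called in fewer libraries are shorter partly by construction. Long regions were called nearly everywhere, with 750 of the 869 regions of at least 20 kb found in all 4 libraries.

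Read counts were compared in the 5209 regions called in all 4 libraries, 2885 at H3K4me3 and 2324 away. The short Tutored replicate 2 list limited this set for both replicates. The set held 92.5% of that list's reads, against 62.9% to 72.5% in the other lists. Reads in these regions came to 2377660 and 2365213 in Isolate replicates 1 and 2, against 2250379 and 1843115 in Tutored. At H3K4me3 the median log2 ratio of unscaled reads, Isolate over Tutored, was 0.15 in replicate 1 and 0.41 in replicate 2, and away from it 0.01 and 0.16. The difference between the places was 0.14 in replicate 1 and 0.25 in replicate 2. A constant factor between libraries cancels in it, but differences in the length that islands cover do not. Single islands were shorter in Isolate, with a median of 3200 and 2400 bp in Isolate replicates 1 and 2, against 3400 and 3000 bp in Tutored. The length covered within shared regions was another matter. Isolate covered more of the region than Tutored at 1440 regions at H3K4me3 in replicate 1 and less at 1119, and in replicate 2 more at 1642 and less at 905. The median log2 ratio of covered length at H3K4me3 was 0.00 in replicate 1 and 0.09 in replicate 2. Away from H3K4me3 it covered more at 988 and less at 1095 in replicate 1, and more at 1060 and less at 978 in replicate 2. Reads per covered kb had a median log2 ratio of 0.10 and 0.24 at H3K4me3 in replicates 1 and 2, and 0.01 and 0.12 away. Chromosome class and H3K4me3 went together here. The median log2 ratio of unscaled reads was 0.18 in replicate 1 and 0.44 in replicate 2 at H3K4me3 on small chromosomes, and -0.08 and 0.05 away from it on large autosomes.

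Where islands filled at least 80% of a region in each of the 4 libraries, the reads differed by little, but this choice removes regions whose cover differed between libraries and so largely fixes a small spread. In the 864 such regions the median log2 ratio of unscaled reads was 0.13 in replicate 1, with quartiles at 0.01 and 0.23, and 0.26 in replicate 2, with quartiles at 0.13 and 0.38. At H3K4me3 it was 0.16 and 0.29, and away from it 0.07 and 0.19.

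No single shared region passed the test across replicates. edgeR's quasi-likelihood test called none of 5209 regions (0.0%) at a threshold of 0.05 after Benjamini-Hochberg adjustment, and 62 had an unadjusted p under 0.05, 39 higher and 23 lower in Isolate. With the replicate number as a block it also called 0. There 265 had an unadjusted p under 0.05, about as many as that threshold passes when no region differs. Across the 5209 regions the log2 read ratios of replicates 1 and 2 correlated at r = 0.192. DESeq2 called 1 region, the one on chromosome 26 described next. Without Isolate replicate 1 edgeR called 14 regions, 3 higher in Isolate, and without Tutored replicate 1 it called 21, all higher in Isolate.

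By size, 16 regions (0.307%) were over 2-fold higher in Isolate in both replicates and 18 (0.346%) over 2-fold lower, after scaling to the reads in the 5209 regions. In replicate 1 alone 69 regions were over 2-fold higher (1.32%) and 86 lower (1.65%), and in replicate 2 alone 307 (5.89%) and 293 (5.62%). A further 7 regions were over 2-fold higher in replicate 1 and lower in replicate 2, and 3 the other way. The balance depended on the scaling. It lowered the log2 ratios by 0.08 in replicate 1 and 0.36 in replicate 2, and with unscaled reads 31 regions were higher and 8 lower in both. With reads scaled to all islands of a library the counts were 12 higher and 24 lower.

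**Figure D5:**
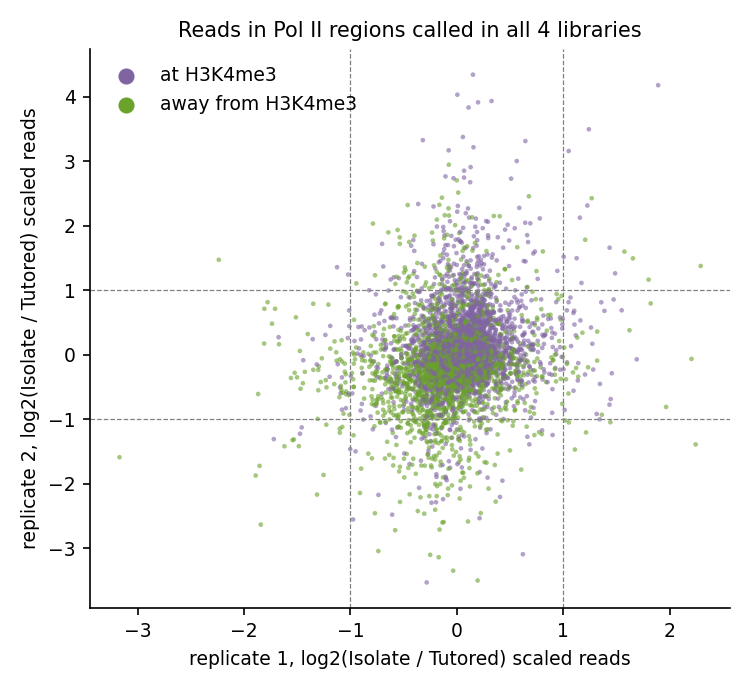
Log2 ratio of scaled Pol II reads, Isolate over Tutored, in replicate 1 (horizontal) and replicate 2 (vertical) for 5209 regions called in all 4 libraries, coloured by H3K4me3. Dashed lines mark 2-fold. The upper right corner holds 16 regions, 10 of them at H3K4me3, and the lower left corner 18, of which 4 are at H3K4me3. Of all 5209 regions, 55.4% are at H3K4me3.

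The region on chromosome 26 at 4117401 to 4132800, at H3K4me3 and H3K27me3, held 282 and 744 reads in Isolate replicates 1 and 2, against 72 and 32 in Tutored. Its islands covered 11.4 and 13.8 kb of 15.4 kb in Isolate, against 3.2 and 0.6 kb in Tutored. The edgeR log2 fold was 3.18 (SE 0.66), with an adjusted p of 0.9998, and DESeq2 gave 3.17 with an adjusted p of 0.00348. It had no Pol II island at day 32.

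Other regions higher in Isolate in both replicates were led by chromosome 9 at 22851601 to 22859800, with 217 and 350 reads in Isolate against 69 and 90 in Tutored. Chromosome 7 at 25777801 to 25786400 had 226 and 170 reads in Isolate against 68 and 47 in Tutored. Chromosome 1 at 39449601 to 39461000 had 257 and 430 reads in Isolate against 90 and 106 in Tutored. That last region is at H3K4me3 and carries both H3K27me3 and H3K9me3, while those on chromosomes 9 and 7 carry none of these marks. Chromosome 4 at 25929401 to 25945400 had 403 and 170 reads in Isolate against 78 and 51 in Tutored. Chromosome 23 at 5587401 to 5602400, with H3K27me3 and H3K9me3, had 216 and 649 reads in Isolate against 85 and 94 in Tutored. In each of these 6 regions both unscaled Isolate counts lay above both Tutored counts, which their choice by fold in these same reads makes likely. How many of all shared regions have this was not counted, so it has no baseline and says nothing further about the groups.

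Regions lower in Isolate in both replicates were led by 3 on chromosome 2 and 1 on Z, all away from H3K4me3, H3K27me3 and H3K9me3. Chromosome 2 at 106275001 to 106290600 held 134 and 61 reads in Isolate replicates 1 and 2, against 470 and 174 in Tutored. Chromosome 2 at 35145601 to 35151400 held 61 and 42 reads in Isolate against 207 and 203 in Tutored. Z at 12173601 to 12204600 held 240 and 77 reads over 8.6 and 1.6 kb in Isolate, against 821 and 198 reads over 29.4 and 6.6 kb in Tutored. In this last region the Isolate replicate 1 count lay above that of Tutored replicate 2, so the groups overlapped unless compared within a replicate number. Chromosome 2 at 24932801 to 24943400 held 35 and 64 reads in Isolate against 298 and 150 in Tutored. For these 10 regions the adjusted p of edgeR was 0.9998 without the block and 0.726 with it. DESeq2 with the replicate block, added after seeing the data, called 2 of them, the one on chromosome 26 (log2 fold 3.03, adjusted p 0.000171) and the one on Z (log2 fold -1.77, adjusted p 0.0243).

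The 16 and 18 regions differed in the marks they carried. Among the 16 higher in Isolate, 10 were at H3K4me3, 7 at H3K27me3 and 3 at H3K9me3, and 5 had a Pol II island at day 32. Among the 18 lower in Isolate, 4 were at H3K4me3, none at H3K27me3 or H3K9me3, and 10 had an island at day 32. Of the 5209 shared regions, 2885 were at H3K4me3, 654 at H3K27me3 and 187 at H3K9me3, and 3668 had an island at day 32. At H3K4me3 the 16 regions (62.5%) were thus near the share of all shared regions (55.4%), and the 18 (22.2%) below it. In both sets, which were chosen by these reads, the reads went with the covered length. The 16 regions had a median log2 length ratio of 1.62 and 2.43 in replicates 1 and 2, but a median log2 ratio of reads per covered kb of -0.19 and -0.29. The 18 regions had length ratios of -1.61 and -1.36 and ratios of reads per covered kb of 0.11 and 0.36.

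Among shared regions of at least 20 kb with the same direction in both replicates, the largest mean log2 ratio of cover in favour of Isolate was on chromosome 19 at 5484601 to 5507000, at H3K4me3. Its islands covered 17.2 and 10.6 kb in Isolate replicates 1 and 2, against 4.0 and 1.0 kb in Tutored, with 541 and 383 reads in Isolate against 219 and 60 in Tutored. It was followed by a region on chromosome 4A. At 5550601 to 5572400, with H3K4me3, H3K27me3 and H3K9me3, islands covered 2.4 and 21.8 kb in Isolate against 1.0 and 1.2 kb in Tutored, so most of that gap came from Isolate replicate 2. The lowest ratio of cover, Isolate over Tutored, was that of the region on Z described above. The next lowest was that of chromosome 3 at 68518001 to 68539800, with 14.4 and 1.0 kb in Isolate against 21.8 and 7.8 kb in Tutored.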

How the data were processed

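Auditory forebrain was fixed with formaldehyde and sonicated, and ChIP libraries were sequenced, per the labels' protocols. BWA 0.6.1, SICER 1.1 and MACS appear in the submitters' processing notes without their roles. No label or header used here names the genome build. The deposited values are counts of reads per island, 1 list per library, with windows of 200 bp and gaps of 200 bp (H3K4me3) or 600 bp (other targets), per the deposited names, which carry an unexplained tag for normalization. Coordinates are as deposited, 1-based. Depth beyond the islands is unknown.

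Islands were merged across the 4 libraries. A library counted as called when an island overlapped a region by at least 1 bp. For regions called in all 4, reads entered the quasi-likelihood test of edgeR 4.0.16 (R 4.3.3, TMM factors, robust), and DESeq2 1.42.0 as an alternative. The edgeR test was first tried on simulated counts, which held no replicate effect beyond library size. Named regions were the strongest by the smaller read count of a group's libraries, or by the smaller fold of the replicates. The labels give 1 pooled input per replicate number at day 67, so the numbers were taken to pair libraries. Across regions, the deviations of libraries with the same number correlated at r = 0.623. Titles were followed where deposited names of replicate 1 disagree with them. No source says that replicates are separate birds, so the spread behind the p-values may be technical. Binomial intervals cover counting error only. Regions, lists and splits were chosen with earlier results of these data known. Columns beyond the read count were not used.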

Additional observations from a re-analysis of the deposited data

How the results depend on the processing

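The excess of Isolate-only over Tutored-only regions at H3K4me3 kept its direction under each alternative run made for it. So did the higher share of H3K4me3 regions with Pol II in Isolate. The median log2 read ratio at H3K4me3 minus that away also stayed above 0 where it was recomputed. It was 0.151 and 0.274 in replicates 1 and 2 with islands within 1000 bp merged. With H3K4me3 regions called in any day 67 library it was 0.153 and 0.261. For the excess, runs without 1 Isolate library favour Isolate by their rule, since an Isolate-only region then needs fewer calls than a Tutored-only one. Among the runs that left out a library, only those without a Tutored library could readily have gone against it. Requiring islands to cover 50% of a region gave 553 Isolate-only and 26 Tutored-only regions at H3K4me3, and 891 and 120 in all. Equal numbers of islands per replicate number, ranked by reads per kb, gave 321 Isolate-only and 221 Tutored-only regions, 210 and 16 at H3K4me3. The share of H3K4me3 regions with Pol II then differed by 7.76 percentage points in replicate 1 and 10.01 in replicate 2. With all islands these differences were 8.63 and 25.7. Ranked by reads, the counts were 241, 206, 99 and 27, and the differences 3.93 and 8.70. Merging islands within 1000 bp gave a median log2 length ratio of 0.075 in replicate 2. Unscaled reads gave 31 regions over 2-fold higher and 8 lower. Leaving out 1 library gave 933 to 4272 Isolate-only and 202 to 2491 Tutored-only regions, 481 to 2923 and 20 to 263 at H3K4me3, since a region then needs fewer calls. edgeR called 0 to 21 regions in these fits, where a group left with 1 library takes its spread from the other group. DESeq2 called 1 region and, with the replicate block, added after seeing the data, 2. edgeR with the replicate block called 0, and so did edgeR with size factors by RLE, the filter at 50 reads, covered length as offset, and regions called in at least 2 libraries, where uncalled libraries were set to 0 reads although their true number is unknown. Depth is unknown outside islands, which limits any statement on regions that were not called.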
